A study of Rattus norvegicus with 9 samples.

Results

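The S100 genes code for small calcium-binding proteins with a pair of EF-hand loops, and the set described here joins 9 of them to S100g, the gene of calbindin-D9k. These 10 genes were picked by the gene symbol that the array design gives, and they are carried by 13 of the 45598 non-control probes, which bear 34912 different gene names. S100g was known from an earlier look at the same arrays to be among the genes with the clearest higher signal in estradiol-treated rats, and S100a8 among the lower ones, so the differences between the groups given below are a description of chosen genes and carry no test. RNA came from the amygdala of 9 female spontaneously hypertensive rats (SHR, an inbred strain with high blood pressure), both sides together and 1 rat per array. All rats had their ovaries removed at 4 weeks of age, received an Alzet minipump under the skin a week later, and were 9 weeks old at collection. The pump held PEG alone in the 4 rats called OV, and estradiol in PEG at 0.33 mg/ml, giving 2 µg a day, in the 5 rats called OV+E2. The control rats are therefore also ovariectomised, and rats with intact ovaries or of another strain were not analysed here. Nothing in the labels says whether cages or litters were shared, so the spread is that between these 9 rats.

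S100 proteins mostly work as dimers that change shape when calcium binds and then attach to a target protein. Some are released from cells and act on the receptors RAGE and TLR4. S100B is the classic astrocyte member, S100A8 and S100A9 form calprotectin in neutrophils and other myeloid cells, S100A10 pairs with annexin A2, and S100A4 binds non-muscle myosin and is abundant in fibroblasts and some immune cells. Calbindin-D9k differs from the others in acting as a monomer that buffers and carries calcium in the intestine, under vitamin D, and in the uterus of the rat, where oestrogen raises it.

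The signal of a gene on these arrays is read through probes of 60 bases, and the probes on which the results turn are shown here because 3 of the genes have a pair of probes, which for S100a4 and S100a8 lie on opposite strands. Whole probes are given for S100a1, S100a3, S100a8 and the second S100a4 probe, and stretches of 30 bases for the others, with the position of the whole probe in rat build rn4. Capitals mark the letters GANNNNAANNNNGA on either strand, a spacing in which the codons of the aspartate and asparagine positions of a calcium-binding loop can fall, with overlapping matches allowed. This pattern was chosen after the sequences had been seen.
S100g (chrX:52449257-52449316, + strand, first 30 bases): cgacaccacctactgattgaatcctatcca
S100a1 (chr2:182784857-182784916, - strand): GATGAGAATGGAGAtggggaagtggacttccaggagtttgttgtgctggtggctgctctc
S100a3 (chr2:182883355-182883414, + strand): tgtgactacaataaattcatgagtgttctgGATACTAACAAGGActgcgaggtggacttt
S100a4 RefSeq probe (chr2:182887318-182887377, + strand, last 30 bases): tgctgagcaagtttaataaagagttttgaa
S100a4 reverse-strand probe (chr2:182887121-182887180, - strand): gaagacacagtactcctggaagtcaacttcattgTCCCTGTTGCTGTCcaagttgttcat
S100a8 RefSeq probe (chr2:182962328-182962387, + strand): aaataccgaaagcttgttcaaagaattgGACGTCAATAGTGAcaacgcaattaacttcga
S100a8 reverse-strand probe (chr2:182961489-182962022, - strand, first 30 bases): ccattgtcgataaaaatttcctttcacaca
S100b upstream probe (chr20:12791789-12791848, - strand, first 30 bases): aTCAAAATTCTGCTCagtagacgtctcctt
S100b downstream probe (chr20:12791440-12791485, - strand, last 30 bases): cagataaataaaaaccgcattgcaagtatt

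The pattern was held by 6 of the 13 S100 probes, against 4.53% of all 45598 probes. Because the pattern was picked from these sequences, nothing is read from that excess. A match is a description of the letters only, and reading frames were not checked. Strand was read from the order in which the file writes a probe's coordinates. That order matched the RefSeq strand of the gene (assembly GRCr8) for 95.3% of 16997 probes with a RefSeq accession, and for all 7 S100 RefSeq probes that could be looked up. The second probes of S100a4 and S100a8 carry accessions other than RefSeq and run opposite to the RefSeq probes of their genes, so they are reported apart. Most of the family sits together on chromosome 2, with S100a1, S100a3, S100a4, S100a6, S100a8 and S100a9 between 182784857 and 182987706, while S100g is on the X chromosome and S100b on chromosome 20. The position of probes within exons was not analysed here.

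Signals are given as a percentage of the 75th percentile of their array. Testing was limited to probes that the scanner software marked as well above background in 4 or more of the 9 rats, which held for 12 of the 13 probes and 30215 probes in all. The S100a8 reverse-strand probe was well above background on 0 of 9 arrays and has no usable level. The 75th percentile itself lay between 556.8 and 737.6 on 8 arrays and at 129.7 on OV replicate 3, whose mean correlation with the other arrays was 0.932 against 0.981 to 0.984 for those 8. For that rat the value column the authors deposited also differs from the scanner file, as the S100b probes show below, so results are given with and without it. Slide 1 carried 3 OV and 2 OV+E2 arrays, and slide 2 carried 1 OV and 3 OV+E2 arrays. All 12 markers of forebrain neurons were measured on the arrays, with a summed level of 18594 to 21445 in OV and 21033 to 22450 in OV+E2, while of 8 pituitary genes Prl, Gh1 and Tshb never cleared the background limit and 5, among them Pomc, were tested.

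S100g was higher in every estradiol-treated rat than in any control. Its signal was 2.18, 3.49, 2.39 and 3.64 in OV replicates 1, 2, 3 and 5, and 8.73, 6.19, 10.5, 8.67 and 9.37 in OV+E2 replicates 1 to 5. All 5 treated rats lay above the highest control, with OV+E2 replicate 2 the nearest to it. The means were 2.93 ± 0.74 (SD, n = 4) and 8.70 ± 1.58 (SD, n = 5), a log2 difference in measured signal of +1.59 (SE 0.20) or 3.00-fold. This fold is open to error, since the probe cleared the scanner software's background limit in 1 of 4 OV rats (replicate 5) and in 5 of 5 OV+E2 rats, and so was tested through the group in which it is high. On OV replicate 1 the lowest signal among probes well above background was 2.11, close to its S100g value, and on OV replicate 3 it was 6.80, above its S100g value. Arrays of slide 1 alone gave +1.48, those of slide 2 alone +1.38, and a slide term in the fit +1.44.

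**Figure D1:**
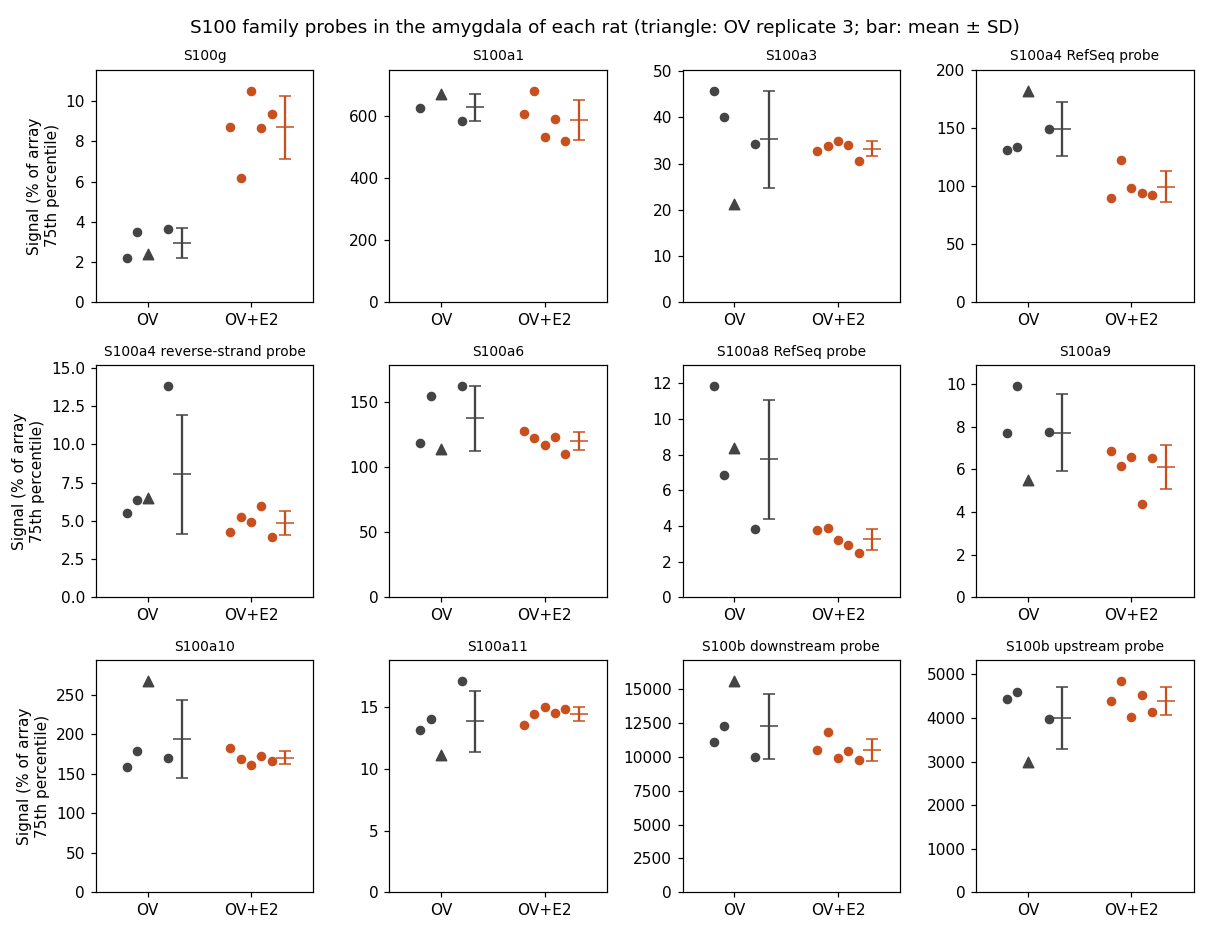
Signal of 12 S100 probes in each rat, as a percentage of the 75th percentile of its array (vertical axis from 0), for OV (grey) and OV+E2 (orange); bars beside the points are mean ± SD and the triangle is OV replicate 3. S100g in OV+E2 lies between 6.19 and 10.5, above all OV arrays (2.18 to 3.64), and the S100a4 RefSeq probe lies lower in OV+E2 (89.3 to 123) than in OV (131 to 182).

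How far S100g separated the groups depended on how the background was handled, on OV replicate 3 and on the other arrays. With normexp, which models background from the mean and local background signals, and an added offset of 50, S100g was at 12.6, 14.9, 35.4 and 12.7 in the OV rats and between 17.0 and 18.7 in the OV+E2 rats. OV replicate 3 had become the highest of all 9 arrays, and the other 3 controls stayed below all 5 treated rats. The S100a8 reverse-strand probe, never above background, read 29.0 on OV replicate 3 with this offset, and 7.81 to 10.8 on the other arrays. Values of dim probes on that array after normexp with the offset are therefore not read as levels of their genes. The log2 difference was +0.063 with that array and +0.41 without it. With the offset taken off again it was +0.60 with OV replicate 3 and +0.83 without it. In the authors' values S100g was 14.4, 22.9, 13.7 and 23.9 in OV and 40.7 to 69.3 in OV+E2, a difference of +1.64. The groups were thus apart in the processed signal and in the authors' values, and overlapped after normexp through 1 array.

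**Figure D2:**
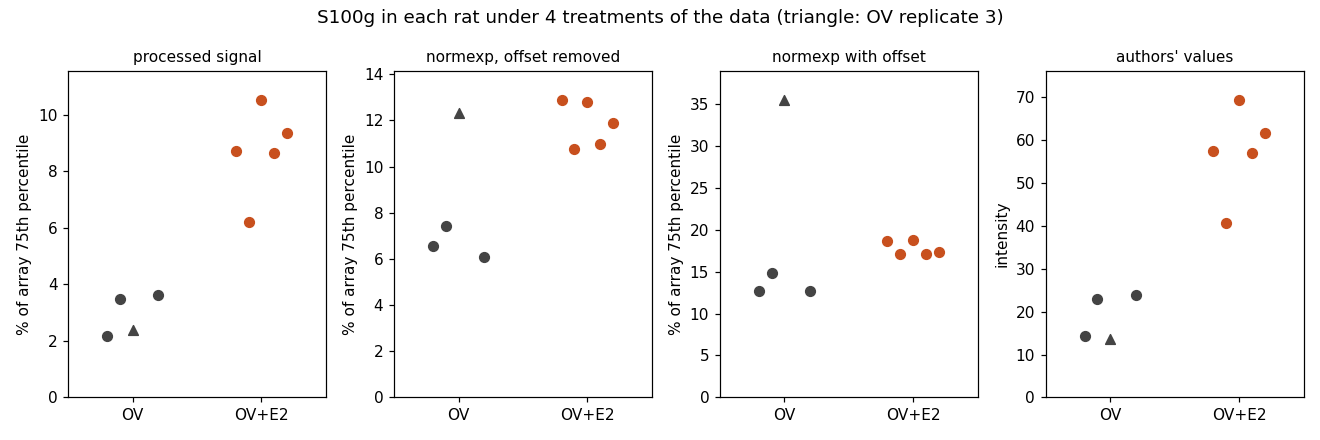
S100g in each rat in the processed signal, after normexp with its offset removed, after normexp with the offset (all 3 as a percentage of the array's 75th percentile) and in the authors' values (intensity); triangles mark OV replicate 3. That array moves from 2.39 in the processed signal to 35.4 after normexp with the offset, while the treated rats lie at 17.0 to 18.7 there.

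Genes that handle calcium beside calbindin-D9k gave mixed directions. The channels Trpv5 and Trpv6, which let calcium into epithelial cells, and the vitamin D catabolic enzyme gene Cyp24a1 stayed below the background limit on all 9 arrays. Of 18 listed EF-hand and calcium transport genes 15 were tested, 7 higher and 8 lower with a median log2 difference of −0.09, beside 0.00 over all tested probes. Cyp27b1, which makes the active form of vitamin D, was at 23.9 ± 8.4 (SD, n = 4) in OV and 11.9 ± 4.9 (SD, n = 5) in OV+E2, a log2 difference of −1.04 (SE 0.34). The vitamin D receptor gene Vdr, above the background limit on only 4 of 9 arrays, was at −0.68 (SE 0.35). The sodium-calcium exchanger gene Slc8a1 was at +0.27 (SE 0.15), or +0.12 without OV replicate 3. The other calcium buffers of neurons, named here outside the naming rule, had Calb1 at +0.12 (SE 0.13), Calb2 at 0.00 (SE 0.11) and Pvalb at +0.11 (SE 0.29). Without OV replicate 3 they were at +0.07, −0.06 and +0.30.

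Of 17 listed oestrogen-responsive genes 13 were tested, 8 higher and 5 lower with a median of +0.05. Gal, which codes for the neuropeptide galanin, was at 154 ± 36.3 (SD, n = 4) in OV and 241 ± 21.3 (SD, n = 5) in OV+E2, a log2 difference of +0.68 (SE 0.16), and the groups did not overlap. The oxytocin receptor gene Oxtr was at +0.67 (SE 0.27), but normexp turned it to −0.22 and leaving out OV replicate 3 gave +0.37. The chemokine gene Cxcl12 was at +0.18 (SE 0.09). Tff1 and Prl were below the background limit throughout. By the correlation of their signal over all 9 arrays, the genes with patterns most like S100g were Pcgf1 (r = 0.96), Lin28b (0.96), Phf14 (0.96), Rbm39 (0.96) and Sult1a1 (0.95). They were the top of 12779 candidates and follow the same split of the arrays, so values this high are what the search looks for.

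S100a4 was the other gene whose groups did not overlap. Its RefSeq probe read 131, 134, 182 and 149 in OV replicates 1, 2, 3 and 5, and 89.3, 123, 98.0, 94.3 and 92.3 in OV+E2 replicates 1 to 5. All treated rats were below all controls, with OV+E2 replicate 2 again the closest. The means were 149 ± 23.3 (SD, n = 4) and 99.3 ± 13.4 (SD, n = 5), a log2 difference of −0.58 (SE 0.14). It was −0.48 without OV replicate 3, the highest control, and −0.52 after normexp. In the authors' values it was −0.44, and there OV replicate 3 (800) lay just below OV+E2 replicate 2 (806), so that the groups overlapped. It was −0.49 within slide 1 and −0.65 within slide 2. The reverse-strand probe was dim, at 5.49, 6.36, 6.47 and 13.8 in OV and 3.94 to 5.97 in OV+E2, and its groups overlapped (−0.64, SE 0.26). Without OV replicate 5, which alone exceeded 6.47, the reverse-strand difference was −0.34.

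Fibroblasts and macrophages are known to hold S100A4, so the listed markers of meninges and fibroblasts and of microglia and macrophages are given beside it. Over all tested probes 49.9% were lower, and 7.17% were lower at an unadjusted p under 0.05 in limma. Of 12 genes of meninges and fibroblasts 7 were lower and 5 higher, with 6 lower at an unadjusted p under 0.05 in limma and a median of −0.26. Their summed level was 6827 to 9001 in OV, up to 8424 without OV replicate 3, and 6310 to 6914 in OV+E2. The collagen genes led, with Col1a1 at −0.62 (SE 0.11) and Col3a1 at −0.47 (SE 0.12), followed by the collagen-processing gene Pcolce at −0.54 (SE 0.18), or −0.33 without OV replicate 3. Of 12 microglia and macrophage genes 11 were tested and 7 were lower, 5 of them at that level, with Itgam at −0.58 (SE 0.11), Aif1 at −0.39 (SE 0.12) and Cd68 at −0.35 (SE 0.14), or −0.21 without OV replicate 3. Their summed level was 4595 to 6236 in OV, up to 5273 without OV replicate 3, and 3813 to 4405 in OV+E2, without overlap. The largest signal difference in that sum was that of Cx3cr1, named outside the naming rule. Cx3cr1 was at 1391 ± 661 (SD, n = 4) in OV and 768 ± 84.3 (SD, n = 5) in OV+E2, with overlapping groups. Its log2 difference was −0.74 (SE 0.29), or −0.47 without OV replicate 3. With median scaling the counts of both classes at an unadjusted p under 0.05 in limma were 3 and 2, beside 5.09% of all probes. With slide as a block they were 4 and 2, for which no share of all probes is given. The part of either class in the S100a4 difference was not tested, and in tissue RNA fewer cells of a type and less RNA per cell cannot be told apart.

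The calprotectin genes were both dim, with overlapping groups. The S100a8 RefSeq probe read 11.9, 6.85, 8.38 and 3.84 in OV and 3.78, 3.89, 3.19, 2.92 and 2.50 in OV+E2. OV replicates 1, 2 and 3 lay above all treated rats and OV replicate 5 fell within their range. The log2 difference was −1.15 (SE 0.30), from 7.73 ± 3.33 (SD, n = 4) to 3.26 ± 0.59 (SD, n = 5), and the probe cleared the background limit in 3 of 4 OV rats, all but OV replicate 3, and in 3 of 5 OV+E2 rats. Slide 1, which holds the 3 high controls, gave −1.20, slide 2 gave −0.43, and a slide term in the fit −0.90. S100a9 read 7.70, 9.91, 5.51 and 7.76 in OV and 6.88, 6.15, 6.60, 4.36 and 6.55 in OV+E2, a difference of −0.33 (SE 0.19) with overlapping groups. OV replicate 3, the 1 array on which S100a9 missed the background limit, was the only control among the treated values, and without it S100a9 was at −0.48 and the groups did not overlap.

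OV replicate 3 was placed differently by the authors' values for both genes. There S100a8 was 78.1, 45.0, 12.4 and 25.3 in OV and 16.4 to 25.6 in OV+E2, so that OV replicate 3 was the lowest of the 9 instead of the second highest control. S100a9 of that rat was 23.2, again the lowest of 9, against 28.8 to 65.1 in the others. The S100a8 difference in these values was −0.61, and −1.08 without OV replicate 3. In the processed signal the deviations of S100a8 and S100a9 from their group means showed no clear relation, with r = −0.07 and rho = −0.12 over 9 arrays (exact permutation within groups, two-sided p = 0.901 and 0.797, adjusted p = 0.938 over 50 pairs). Without the 2 arrays farthest on S100a8 r was −0.12. In the processed signal without OV replicate 3 r was 0.088. In the authors' values, with all 9 arrays, r was 0.71 (exact permutation, adjusted p = 0.627).

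**Figure D3:**
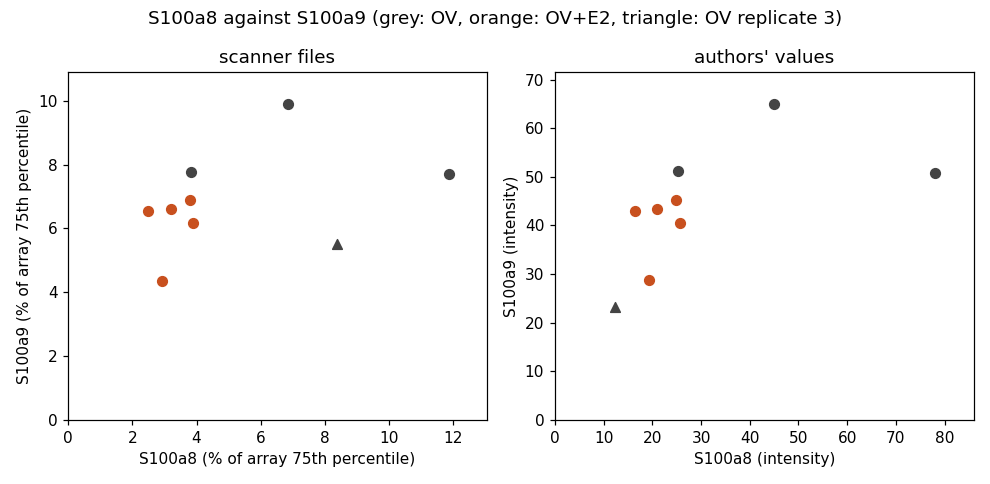
S100a8 (RefSeq probe, horizontal) against S100a9 (vertical) in each rat, in the scanner files as a percentage of the array's 75th percentile and in the authors' values as intensity; grey is OV, orange OV+E2, and the triangle is OV replicate 3. The triangle sits at 8.38 and 5.51 in the scanner files, and at 12.4 and 23.2, the lowest corner, in the authors' values.

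Other genes of neutrophils were near the limit of detection. Of 15 listed markers, 6 stayed below the background limit throughout (Elane, Ltf, Ngp, Mmp8, Mmp9 and Cd177), and 5 were tested. Fcnb, a neutrophil granule lectin, was at −0.66 (SE 0.18) with no overlap between groups, Retnlg at −0.68 (SE 0.28) and the receptor gene Csf3r at +0.30 (SE 0.22). Without OV replicate 3 Csf3r was at +0.55, and after normexp at −0.16. The summed level of the list was 47.6 to 145 in OV, or up to 68.5 without OV replicate 3, and 43.0 to 50.7 in OV+E2. Red cell genes, which mark blood left in the tissue, summed to 15545 to 16759 in OV and 10434 to 14605 in OV+E2, without overlap. Most of that sum is the Hba1 probe alone, at 14906 ± 494 (SD, n = 4) in OV and 11910 ± 1470 (SD, n = 5) in OV+E2. Hba1 was at −0.33 (SE 0.11), Ahsp at −0.22 (SE 0.09) and Slc4a1 at −0.68 (SE 0.22), the last at −0.43 without OV replicate 3. The globin genes Hbb, at +0.11 (SE 0.26), and Hba2, at −0.04 (SE 0.22), are named outside the naming rule and overlapped between groups. In the list 4 of 6 were lower at an unadjusted p under 0.05 in limma, beside 7.17% of all probes. That count was 1 with median scaling, beside 5.09% of all probes. It was also 1 after normexp and was 0 in the authors' values, for which no share of all probes is given. The part of blood in the S100a8 difference was not tested. The genes with patterns most like S100a8 over the 9 arrays, out of 12779, were Muc3 (r = 0.96), Rpl3 (0.95), Idi1 (0.95), Map6d1 (0.95) and Mrps24 (0.93).

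The pair of S100b probes gave opposite signs. The downstream probe, which the file places at position 1406 of the transcript, was at −0.21 (SE 0.14) and the upstream probe, at position 1080, at +0.15 (SE 0.14). Each is printed on 10 spots, and both groups overlapped on both probes. The ratio of downstream to upstream signal within an array was 2.50, 2.68, 5.20 and 2.51 in OV and 2.38, 2.43, 2.47, 2.30 and 2.35 in OV+E2. OV replicate 3 stood far above the other 8 arrays, and without it the 3 remaining OV ratios (2.50 to 2.68) still lay just above all OV+E2 ratios (2.30 to 2.47), a pattern noticed in the data and not tested. In the authors' values its ratio was 2.57, within the 2.30 to 2.70 of the other 8. Without OV replicate 3 both probes were close to 0, at −0.08 downstream and +0.02 upstream, and the downstream sign turned under quantile normalization (+0.005). Of 12 astrocyte markers 6 were higher and 6 lower, with 0 at an unadjusted p under 0.05 in limma, beside 10.4% of all probes, and a median of 0.00. That count was 1 with quantile normalization, beside 10.8% of all probes, and 1 with median scaling, beside 9.7%. It was 1 after normexp or with slide as a block and 3 in the authors' values, for which no share of all probes is given. Sox9 was at −0.65 (SE 0.32), Gjb6 at +0.18 (SE 0.09) and Slc1a2 at −0.46 (SE 0.24). Sox9 was at −0.30 and Slc1a2 at −0.18 without OV replicate 3. Their summed level was 37948 to 45437 in OV and 37154 to 45571 in OV+E2.

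**Figure D4:**
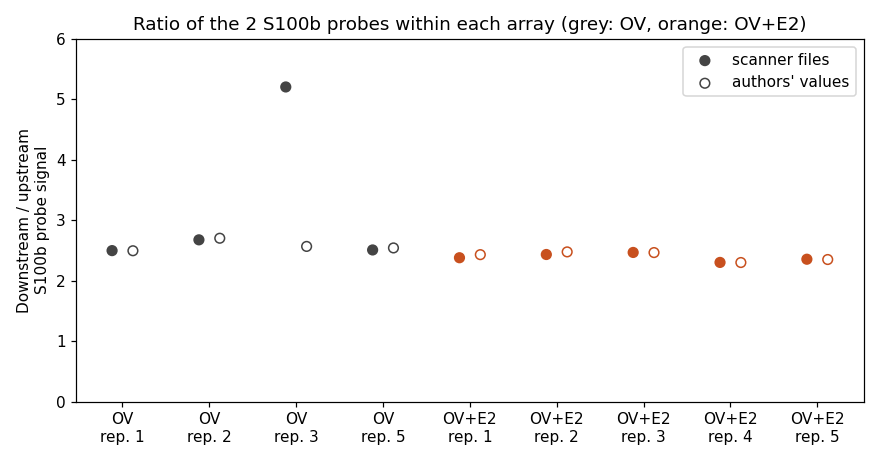
Ratio of the downstream to the upstream S100b probe within each array, from the scanner files (filled) and the authors' values (open), for OV (grey) and OV+E2 (orange). The scanner file of OV replicate 3 lies at 5.20 and the other 8 arrays between 2.30 and 2.68, while in the authors' values that rat lies at 2.57.

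The remaining members differed little between the groups. S100a1, whose protein acts on calcium pumps and release channels, read 520 to 683 in OV+E2 and 586 to 673 in 3 OV rats, the spot of OV replicate 2 having been set aside as an outlier by the scanner software. Its difference of −0.10 (SE 0.12) turned to +0.018 under median scaling. S100a3, best known from the hair cuticle, was at −0.03 (SE 0.20) over 9 arrays. OV replicate 3 was its lowest array at 21.3 against 34.2 to 45.8 in the other controls and 30.5 to 34.9 in the treated rats. Without that array S100a3 was at −0.26, and its sign also turned under median scaling (+0.07) and quantile normalization (+0.04). S100a6 (calcyclin) was at 137 ± 24.7 (SD, n = 4) and 120 ± 6.87 (SD, n = 5), a difference of −0.18 (SE 0.13), with −0.03 within slide 1 and −0.48 within slide 2. S100a10 was at −0.16 (SE 0.15), an offset carried by OV replicate 3 at 267 against 159 to 179 in the other controls, and was at +0.01 without it. S100a11, a partner of annexin A1, was at +0.08 (SE 0.12, 95% interval −0.20 to +0.36), −0.02 without OV replicate 3 and −0.22 after normexp. For S100a10 the interval was −0.50 to +0.18.

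Over the set, 0 of 12 tested probes passed an adjusted p of 0.05 in limma, as did 0% of all 30215 tested probes. At an unadjusted p under 0.05 there were 4 of 12, namely S100g higher and both S100a4 probes and the S100a8 RefSeq probe lower, beside 10.4% of all probes (3.2% higher and 7.17% lower). Median scaling split that count of all probes into 4.61% higher and 5.09% lower (9.7% in all), and quantile normalization into 4.44% and 6.36% (10.8% in all). Groups without overlap were found for 2 of 12 probes, S100g higher and the S100a4 RefSeq probe lower, beside 6.9% of all probes (2.88% higher and 4.02% lower). At an unadjusted p under 0.01 with at least a 1.5-fold difference stood S100g and the S100a8 RefSeq probe, beside 2.16% of all probes. In all 9 of 12 probes were lower in OV+E2 beside 49.9% of all, with a median of −0.17 beside 0.00. Nothing is read from these shares, because the set was chosen with this contrast in view. Without OV replicate 3 the count at an unadjusted p under 0.05 was 7 of 12 beside 14.1% of all probes (5.84% higher and 8.27% lower). S100a3, S100a6 and S100a9 joined the lower side.

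Spread within groups was larger among the controls. The SD of the log2 signal was larger in OV than in OV+E2 for 11 of 12 S100 probes, as for 85.1% of all tested probes, and for 9 of 12 and 59.9% without OV replicate 3. S100a11 and S100a10 were the steadiest of the set in treated rats, with SDs of 0.06 and 0.07, though their signals are means of 10 spots and those of the other genes except S100b come from 1 spot. S100a8 was the most variable gene, with a residual SD of 0.49 that exceeded 78.7% of all tested probes. S100g, at 0.33, exceeded 57.6%.

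Whether members varied together from rat to rat was examined on deviations from group means, which do not use the contrast between the groups. Of 50 pairs, 45 within the set and 5 with known partners, 0 passed an adjusted p of 0.05 by exact permutation within groups. A single pair with S100a1, measured on 8 arrays, could not have passed, because its smallest possible p is too large for 50 pairs. The smallest p was that of S100a1 and S100b (downstream probe), with r = 0.72 and rho = 0.79 over 8 arrays (exact permutation p = 0.00139 each, the smallest that design allows; adjusted p = 0.0694). It was r = 0.77 without the 2 farthest arrays. Over 7 arrays without OV replicate 3 it was 0.95 (exact permutation p = 0.00417, again the smallest possible, adjusted p = 0.208). For S100g and S100a1 they were r = −0.82 and rho = −0.74 over 8 arrays (exact permutation p = 0.0167 and 0.0542; adjusted p = 0.306), with r = −0.67 without the 2 farthest arrays and −0.80 without OV replicate 3. For S100g and S100a8 the coefficients were r = −0.76 and rho = −0.75 over 9 arrays (exact permutation p = 0.0233 and 0.0472, adjusted p = 0.306). There r was −0.62 without the 2 farthest arrays and −0.75 without OV replicate 3 (exact permutation, adjusted p = 0.565). S100g cleared the background limit in only 1 OV rat and S100a8 on 6 of 9 arrays, so part of the deviations in both pairs lies near background. S100a10 and its partner gene Anxa2 gave r = 0.69 and rho = 0.53 (exact permutation p = 0.0264 and 0.0649, n = 9; adjusted p = 0.306), but r was 0.47 without OV replicates 1 and 3. S100b and Gfap, the astrocyte filament gene, gave r = −0.89 and rho = −0.78 (exact permutation p = 0.0306 and 0.0722, n = 9; adjusted p = 0.306). That value was −0.61 without OV replicate 3 and −0.54 without OV replicates 3 and 5. For S100a4 and Myh9 r was 0.66, for S100a6 and Cacybp 0.49 and for S100a11 and Anxa1 −0.11, and without OV replicate 3 these were 0.08, −0.46 and 0.52. Slides 1 and 2 carried too few arrays for a correlation within a slide.

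Of the genes of S100 targets and receptors all 16 were tested, 10 higher and 6 lower, with a median of +0.07. The chaperone gene Stip1, whose product S100 proteins can bind, was at +0.45 (SE 0.15) with no overlap between groups, or +0.28 without OV replicate 3. Anxa11 was at +0.14 (SE 0.08) and Cacybp, the calcyclin-binding protein gene, at +0.34 (SE 0.22), or +0.08 without OV replicate 3. The receptor genes, named here outside the naming rule, were at −0.09 (SE 0.21) for Ager, which codes for RAGE, and −0.05 (SE 0.22) for Tlr4. Leaving out OV replicate 3 gave +0.11 and −0.28. Further S100 genes outside the set numbered 7 on the array, of which 4 were tested and all 4 were lower, beside 49.9% of all probes. S100a5 was at 13.6 ± 8.3 (SD, n = 4) in OV and 5.51 ± 1.31 (SD, n = 5) in OV+E2 without overlap, a difference of −1.18 (SE 0.34). S100a13 was at −0.32 (SE 0.19), or −0.13 without OV replicate 3, and S100a16 at −0.18 (SE 0.11). S100a14, at −0.08 (SE 0.22), turned to +0.06 without that array. S100a7a, S100z and S100vp were never above the background limit.

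No gene of the 13 lists passed an adjusted p of 0.05 in limma. The lists of other cells the dissection could hold are given by their counts. Over all tested probes 49.9% were lower, with a median of 0.00. At an unadjusted p under 0.05 in limma, 1 oligodendrocyte and 1 pituitary gene were lower and 1 neuron gene was higher. The choroid plexus and ependyma list had 0 at that level. Over all probes 7.17% were lower and 3.2% higher at it. Of 10 oligodendrocyte genes 9 were lower, with a median of −0.31 and Mobp at −0.58 (SE 0.25), Mog at −0.34 (SE 0.15) and Mbp at −0.65 (SE 0.30). Mobp was at −0.36 and Mbp at −0.28 without OV replicate 3. Their summed level was 68899 to 163849 in OV, up to 85112 without OV replicate 3, and 58155 to 76927 in OV+E2. Of 10 genes of choroid plexus and ependyma 8 were higher, with a median of +0.28, and Otx2 at +0.81 (SE 0.52), Kl at +0.90 (SE 0.72) and Kcnj13 at +0.41 (SE 0.33). Without OV replicate 3 Otx2 was at +0.96, Kl at +1.35 and Kcnj13 at +0.60. The sum of the list ran from 1484 to 75628 in OV, up to 34808 without OV replicate 3, and from 25717 to 48504 in OV+E2. The groups overlapped with and without that array. Ttr, the brightest gene of the list and named outside the naming rule, was at +1.02 (SE 1.06), or +1.73 without OV replicate 3. Of 8 pituitary genes 5 were tested, with Pomc at −0.49 (SE 0.16), Pou1f1 at −0.84 (SE 0.56) and Fshb at +0.36 (SE 0.36). Pou1f1 was at −1.28 without OV replicate 3. The pituitary sum was 114 to 232 in OV, up to 140 without OV replicate 3, and 97.3 to 317 in OV+E2. Of 12 forebrain neuron genes 9 were higher, with a median of +0.17, and Slc17a7 at +0.30 (SE 0.09) and Slc17a6 at +0.31 (SE 0.17). The part of any of these cells in the S100 differences was not tested.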

How the data were processed

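The values are the processed signals of 1-colour Cy3 rat arrays, an intensity that the authors deposited as scanner files after background subtraction. The submitters' processing notes name Agilent Feature Extraction 9.1, and the file headers name 10.7.3.1 and rn4 coordinates. Labelling started from 200 ng of RNA. Besides probe annotation, the other scanner columns used were the mean and local background signals, which normexp took, and marks of 0 or 1. For the authors' own value table, also an intensity, no source states the scaling.

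Of 62976 spots per array, 4259 controls and any outlier-marked spots were dropped. Repeat spots of a probe were averaged, and log2 signals were reduced by the array's 75th percentile. A probe counted as well above background where most or an equal share of its spots did. The comparison of OV+E2 with OV used limma 3.58.1 under R 4.3.3 (lmFit, eBayes, group as the only term) over 30215 probes, with Benjamini-Hochberg adjustment; SE is that of the fit. Correlations used scipy 1.17.1. Members, lists and alternatives were chosen with earlier results of these data known. Named are all members, the 3 genes of smallest p in each list, 5 partners and the 5 genes most like S100g and S100a8. The brightest probe represented a gene. Symbols were updated through RefSeq for 21184 probes by accession, 9060 by symbol and 412 by synonym, and 14942 were unmatched. The fit was tested on simulated data. The number of arrays limits the precision. Promoters of S100g, S100a1, S100a8 and S100a10 were not analysed here. 1 gene that the naming rule picks is not reported here.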

Additional observations from a re-analysis of the deposited data

Results flagged for a closer look

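In 25 groups of 4 or 5 arrays the highest or lowest S100 value was set against the gap to its neighbour (Dixon's ratio at the 95% level). Chance marks about 1 in 20 such groups. S100a9 in OV+E2 replicate 4, at 4.36, lay apart from the next treated rat at 6.15. The S100b probe ratio of OV replicate 3, at 5.20, lay apart from the next control at 2.68.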

How the results depend on the processing

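With 4 and 5 rats, the limits are OV replicate 3 and the dim signal of S100g and S100a8. Over all probes 0 passed the adjusted threshold, against 69 in the authors' values, 9 without the filter on dim probes and 0 to 1 with each array left out. The looser count of 653 became 1152 without the filter, 222 after normexp, 431 with slide as a block, 396 under the stricter filter (above background in all 9 rats) and 402 to 1163 with each array left out. The 4 S100 probes at an unadjusted p under 0.05 became 1 (the S100a4 RefSeq probe) with the stricter filter, which drops S100g, S100a8 and the S100a4 reverse-strand probe, and 3 to 7 with each array left out. S100g, at +1.59, was +0.063 after normexp, +0.60 with the offset removed, and +0.41 and +0.83 in these without OV replicate 3; it was +1.46 to +1.70 with each array left out. S100a8, at −1.15, was −0.61 in the authors' values, −0.65 after normexp, −0.43 within slide 2, −0.34 and −0.54 after normexp with and without offset when OV replicate 3 was dropped, and −1.45 to −0.91 with each array left out. The offset and OV replicate 3 show in these values; other causes were not tested. The correlation of S100a8 and S100a9 passed under none of 15 alternatives (r from −0.31 to 0.90). With 1 array left out, or with slide as a block, the permutations are too few for a single pair to pass over 50 pairs. Those alternatives therefore could not have passed alone and say nothing on the relation. The labels do not state whether replicate numbers pair the rats. Deviations correlated at 0.170, −0.0760, −0.0109 and 0.105 for numbers 1, 2, 3 and 5. Between rats of different numbers the range was −0.290 to 0.122, and so few values cannot settle whether the numbers pair. With the replicate block 0 probes passed, the looser count was 247 and S100g was at +1.58. The median difference over all probes was 0.11 with median scaling, −0.11 after normexp and −0.13 with no filter. The normexp variants without offset or without OV replicate 3, and the authors' values without it, were chosen after seeing the data.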
